A study of Mus musculus with 6 samples.

Results

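Keratins and biliary progenitor markers were followed here as a group of 9 genes, chosen by name: the keratins Krt7, Krt8, Krt18, Krt19 and Krt23, the surface proteins Epcam and Prom1, the transcription factor Sox9, and Spp1. Of these, 8 had a probe set that maps to exactly 1 symbol, out of 18193 genes measured, and Spp1 was not analysed here. Where a gene had several probe sets, the one with the highest mean over all 6 arrays was used. The 8 genes have 13 probe sets between them.

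The livers came from 10-week-old male mice, 3 with the genotype L Pex5 -/- (titled L-Pex5 Knockout, here KO) and 3 with the genotype WT. Total RNA of each liver was hybridised to 1 Affymetrix array. Pex5 is the receptor that brings enzymes into peroxisomes, and the series title places the comparison in the carbohydrate metabolism of hepatocytes without working peroxisomes. The genetic background of both groups is labelled mixed, Alb-Cre Tac:[Sw]fBR. Alb-Cre puts the Cre recombinase under the control of the albumin gene's promoter, which is active in hepatocytes. Whether bile duct cells of these livers also lost Pex5 was not tested. No litter, batch or date is named, and each RNA is from liver tissue with all its cell types.

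Keratins are the intermediate filaments of epithelial cells and form pairs of a type I and a type II chain. Adult hepatocytes rely on the pair of KRT8 (type II) and KRT18 (type I), while the cells of the bile ducts also carry KRT7 and KRT19. EPCAM, SOX9 and PROM1 (CD133) mark bile duct cells and the progenitor-like cells of the ductular reaction, in which duct-like cells spread out from the portal tracts of an injured liver, and KRT23 is a type I keratin known from diseased liver.

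Values are log2 levels made by RMA, and differences are KO minus WT on that scale, so that 1 is a doubling. As a guide to background, the 95th percentile of 38 olfactory receptor genes was 4.90. Pex5 itself did not differ between the groups in this test (0.18 ± 0.11 SE, adjusted p = 0.262 by limma), and where its probe set lies relative to the deleted part is not given, so it does not check the labels. All 6 measured hepatocyte markers lay above background on every array, with none called and none at an unadjusted p under 0.05 in limma. Added control transcripts were dimmer on the KO arrays. Centring the arrays on bacterial hybridization controls moved the median difference over all genes to 0.29, and centring on Bacillus transcripts moved it to 0.51, against -0.055 as deposited. Higher and lower below thus mean relative to most other genes, on the deposited scale.

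Krt23 and Prom1 rose in KO livers and Krt19 fell, while Krt7, Krt8, Krt18, Epcam and Sox9 gave no call at an adjusted p under 0.05. Krt23 was 15.5-fold higher and Prom1 at least 2.44-fold higher. The fall of Krt19 was small and close to background. Over all genes 24.0% were called, 14.2% as higher and 9.75% as lower, so 3 called of 8 is a share not far from the whole array. With a difference of at least 2-fold also asked for, Krt23 and Prom1 still counted as higher, as did 3.02% of all genes. In the same 3 genes no KO value fell within the range of the WT values, which was so for 44.8% of all genes. The median difference of the 8 genes was 0.022, beside -0.055 over all genes. In whole liver, a change in the number of cells of a type and a change in RNA per cell cannot be told apart.

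**Figure D1:**
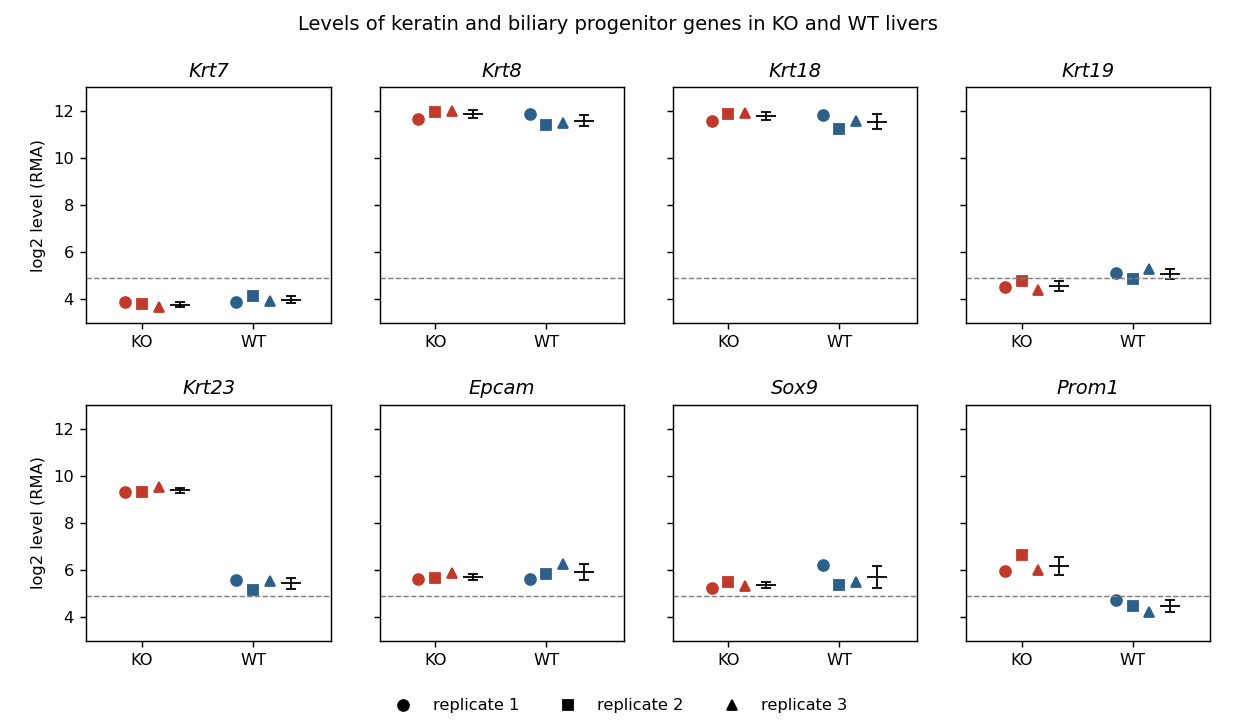
Log2 level (RMA) of each of the 8 genes on each array, KO in red left of WT in blue, with the marker shape giving the replicate; the bars beside the points are the mean ± SD (n = 3) and the dashed line is the background of 4.90. The KO and WT points are separate in Krt23, Prom1 and Krt19, and overlap in the other 5 genes.

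Krt23, on chromosome 11 (GRCm38.p6, chr11:99477973-99493120), had the largest difference of the group. It stood at 9.32, 9.31 and 9.52 in KO livers, against 5.58, 5.15 and 5.55 in WT livers. The lowest KO liver was far above the highest WT liver, and the WT values were themselves only a little above background. The difference was 3.96 ± 0.14 (SE, 95% interval 3.64 to 4.27, adjusted p = 4.08e-06 by limma), a 15.5-fold rise with an interval of 12.5-fold to 19.3-fold. Among the 2589 genes called higher, it ranked 23 by size. Its promoter from RefSeq, 250 bases before to 50 after the annotated start, is shown because it belongs to the strongest response of the group. Capitals mark matches to any of 7 short motifs, searched on both strands. These were the TATA-box motif TATAAA, the AP-1 motif TGANTCA, the core of the antioxidant response element TGACNNNGC, the TEAD motif GGAATG, the SOX motif ACAATG, the related SOX or TCF motif ACAAAG and the HNF1 motif part GTTAAT. The minus-strand window is chr11:99493071-99493370.
Krt23: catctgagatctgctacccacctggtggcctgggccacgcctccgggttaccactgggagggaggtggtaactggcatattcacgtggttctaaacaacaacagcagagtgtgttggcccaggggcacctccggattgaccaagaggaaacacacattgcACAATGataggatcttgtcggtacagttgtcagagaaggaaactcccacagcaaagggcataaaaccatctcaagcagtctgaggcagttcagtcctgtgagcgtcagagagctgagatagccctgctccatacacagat
It held 1 match, ACAATG, whose first base lies at -90 from the start, a motif found in 12.6% of the 32851 promoters of the same length. Such a match is a description of the letters only.

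Prom1 encodes prominin-1, a membrane protein of cell protrusions used to sort progenitor cells (chr5:43993621-44102047). Its level was 5.95, 6.63 and 5.99 in KO livers, against 4.72, 4.46 and 4.21 in WT livers. All WT values lay below background and all KO values above it, with KO replicate 2 the highest. The difference of 1.73 ± 0.20 (SE, 95% interval 1.25 to 2.20, adjusted p = 0.00094 by limma) corresponds to 3.31-fold as measured, and because the WT signal was at background the rise is given as at least 2.44-fold. Of the 2 windows that the table gives for Prom1, the one farther upstream (minus strand, chr5:44101687-44101986), whose start lies inside the gene's annotated span, is shown beside that of Krt23 because both genes rose.
Prom1: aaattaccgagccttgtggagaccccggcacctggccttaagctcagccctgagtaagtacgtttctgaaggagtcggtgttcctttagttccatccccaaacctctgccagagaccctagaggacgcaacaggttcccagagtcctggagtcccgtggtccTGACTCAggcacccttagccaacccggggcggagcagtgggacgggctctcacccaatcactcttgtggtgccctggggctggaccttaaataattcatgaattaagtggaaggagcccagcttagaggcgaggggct
It held 1 match, TGACTCA, at -88, of the AP-1 motif TGANTCA, which 7.81% of all promoters held. The other Prom1 window, not shown, held TGAATCA of the same motif at -189. It also held GCCATGTCA at -79, an opposite-strand match of TGACNNNGC, a motif of 12.4% of all promoters. None of the 7 motifs was found in the windows of both genes.

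Krt8 and Krt18, the hepatocyte keratin pair, were among the bright genes of the array and gave no call. Krt8 (chr15:101996711-102004342) stood at 11.67, 11.94 and 11.98 in KO livers, against 11.85, 11.42 and 11.47 in WT livers. Krt18 (chr15:102028216-102032026), its partner, stood at 11.59, 11.85 and 11.91 in KO livers and at 11.84, 11.22 and 11.56 in WT livers. In both genes WT replicate 1 lay among the KO values and KO replicate 1 was the lowest KO liver, so the groups overlap. The difference of Krt8 was 0.28 ± 0.14 (95% interval -0.046 to 0.61, adjusted p = 0.183 by limma) and that of Krt18 0.24 ± 0.16 (-0.14 to 0.62, adjusted p = 0.312 by limma). A rise of up to 1.53-fold in Krt8 and 1.54-fold in Krt18 is thus within the intervals. The other probe sets of Krt8, both of a class that can match related transcripts, gave 0.33 and 0.33 with no call. With the arrays centred on the bacterial hybridization controls, Krt8 (0.63, adjusted p = 0.00844 by limma) and Krt18 (0.59, adjusted p = 0.0245) passed as higher, as did 41.9% of all genes. With the Bacillus transcripts both passed too, as did 73.3% of all genes.

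The pair kept the same order over the livers. Across the 6 arrays, Pearson's r between Krt8 and Krt18 was 0.93 (exact permutation p = 0.00139, two-sided, n = 6) and Spearman's rho was 1.0 (exact permutation p = 0.00278). Without the livers farthest from the median of Krt8, WT replicates 2 and 3, r was 0.97. Between deviations from the group means r was 0.92. This was the 1 relation between members computed. The genes are neighbours in opposite orientation, with 23.9 kb between them, and their promoters (chr15:102004293-102004592, minus strand, and chr15:102027966-102028265, plus strand) are shown because the transcripts moved together.
Krt8: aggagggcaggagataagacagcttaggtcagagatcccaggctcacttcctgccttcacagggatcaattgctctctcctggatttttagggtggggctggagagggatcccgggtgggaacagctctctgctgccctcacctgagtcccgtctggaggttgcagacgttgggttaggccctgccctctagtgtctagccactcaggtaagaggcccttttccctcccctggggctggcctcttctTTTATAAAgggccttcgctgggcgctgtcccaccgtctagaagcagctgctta
Krt18: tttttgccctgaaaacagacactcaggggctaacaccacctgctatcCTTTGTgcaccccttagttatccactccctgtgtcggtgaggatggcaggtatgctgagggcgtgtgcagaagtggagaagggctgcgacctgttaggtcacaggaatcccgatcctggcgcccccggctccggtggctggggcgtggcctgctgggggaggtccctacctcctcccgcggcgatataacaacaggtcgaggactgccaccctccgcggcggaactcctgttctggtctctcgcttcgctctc
That of Krt8 held TATAAA in overlapping matches on both strands, with first bases at -1 and -3 of the annotated start, a motif of 13.6% of all promoters. That of Krt18 held 1 opposite-strand match of ACAAAG, read as CTTTGT at -203, a motif of 18.7% of promoters. The promoters of the pair shared none of the 7 motifs.

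The keratins that set bile duct cells apart from hepatocytes were dim. Krt19 (chr11:100140810-100145926) stood at 4.53, 4.79 and 4.39 in KO livers, all below background, against 5.12, 4.85 and 5.28 in WT livers, of which 2 were above it. The groups did not overlap, but KO replicate 2 and WT replicate 2 came close to each other. The difference was -0.51 ± 0.15 (SE, 95% interval -0.85 to -0.18, adjusted p = 0.0384 by limma), and measured against background the fall was at least 1.13-fold. This no longer passed without KO replicate 1 (adjusted p = 0.114), KO replicate 3 (0.116), WT replicate 1 (0.0795) or WT replicate 3 (0.0896), and over 18 alternatives the adjusted p ran from 0.0261 to 0.707. The difference was -0.16 with the arrays centred on the hybridization controls and turned to 0.054 with the Bacillus transcripts. Krt7 (chr15:101412403-101427806), the type II partner in bile ducts, was below background on all 6 arrays, at 3.87, 3.78 and 3.68 in KO livers and 3.87, 4.15 and 3.91 in WT livers. Its level in either group is therefore not fixed by these probes.

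Sox9 and Epcam, which mark ducts and progenitors, gave no call either. Sox9 (chr11:112782210-112787757), a transcription factor of bile duct development, stood at 5.24, 5.48 and 5.33 in KO livers, against 6.23, 5.35 and 5.50 in WT livers. WT replicate 1 stood apart, and the other WT livers lay among or just above the KO values. The difference was -0.34 ± 0.22 (95% interval -0.84 to 0.15, adjusted p = 0.275 by limma), and -0.074 without WT replicate 1. A second probe set of Sox9 also had its highest value in WT replicate 1, at 5.90, and differed by -0.49 ± 0.30, while the third was below background on every array.

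The Epcam probe sets differed in direction. Epcam (chr17:87635979-87651127), an adhesion molecule of epithelial cells, was read from a probe set of the class that can match related transcripts, at 5.63, 5.65 and 5.86 in KO livers and 5.63, 5.83 and 6.27 in WT livers. These values overlap, with a difference of -0.20 ± 0.17 (95% interval -0.58 to 0.18, adjusted p = 0.408 by limma). The other probe set stood at 5.65, 6.29 and 5.71 in KO livers and 5.56, 5.39 and 5.47 in WT livers, with every KO value above every WT value and a difference of 0.41 ± 0.17 (95% interval 0.022 to 0.80, adjusted p = 0.125 by limma over all probe sets). Which of them follows the Epcam transcript was not tested.

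**Figure D2:**
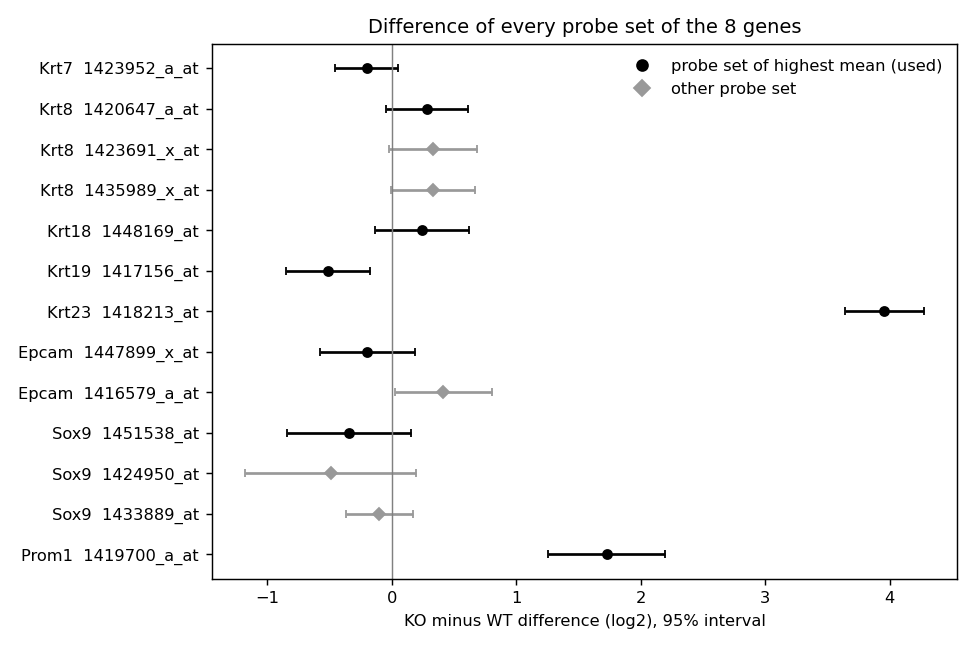
KO minus WT difference (log2) with its 95% interval for all 13 probe sets of the 8 genes, in a limma fit over every probe set with 1 symbol; black circles are the probe sets used and grey diamonds the others. Intervals clear of 0 belong to Krt23, Prom1, Krt19 and the second Epcam probe set, which lies to the right of 0 while the first lies to the left.

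The response of Krt23 was set beside the rest of the keratin family. Of 43 other keratin genes, 1 was higher, 4 were lower and 38 gave no call, beside 24.0% called over all genes. Their differences lay between -0.58 and 0.49, with a median of -0.14. Of these 43, 26 were below background on all arrays. Krt25, a hair follicle keratin and the one called higher, was below background on all arrays in both groups (0.49 ± 0.15, adjusted p = 0.0455 by limma), as was Krt17 (-0.58 ± 0.16, adjusted p = 0.0339). Krt81, a hair keratin, was lower and above background at 6.20, 5.90 and 6.29 in KO livers, against 6.55, 6.49 and 6.85 in WT livers (-0.50 ± 0.14, adjusted p = 0.0363), a difference that turned to 0.065 with the Bacillus transcripts. Among all 48 keratin genes measured, 1, Krt23, had a difference of at least 1. The other lower ones were Krt34 (-0.32 ± 0.09, adjusted p = 0.0335), below background on all arrays and turned to 0.022 and 0.24 with the hybridization controls and the Bacillus transcripts, and Krt42 (-0.32 ± 0.10, adjusted p = 0.047), turned to 0.028 and 0.25 in the same settings. The count of lower keratins was 0 without KO replicate 1 or 2, 1 without KO replicate 3 and 2 without WT replicate 1, 2 or 3. Lower calls over all genes fell too, from 1774 as deposited to 984, 888 and 1156 without KO replicates 1, 2 and 3. They were 1679, 1439 and 1547 without WT replicates 1, 2 and 3. Krt25 was called only without KO replicate 2 or WT replicate 1 among the arrays left out in turn.

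**Figure D3:**
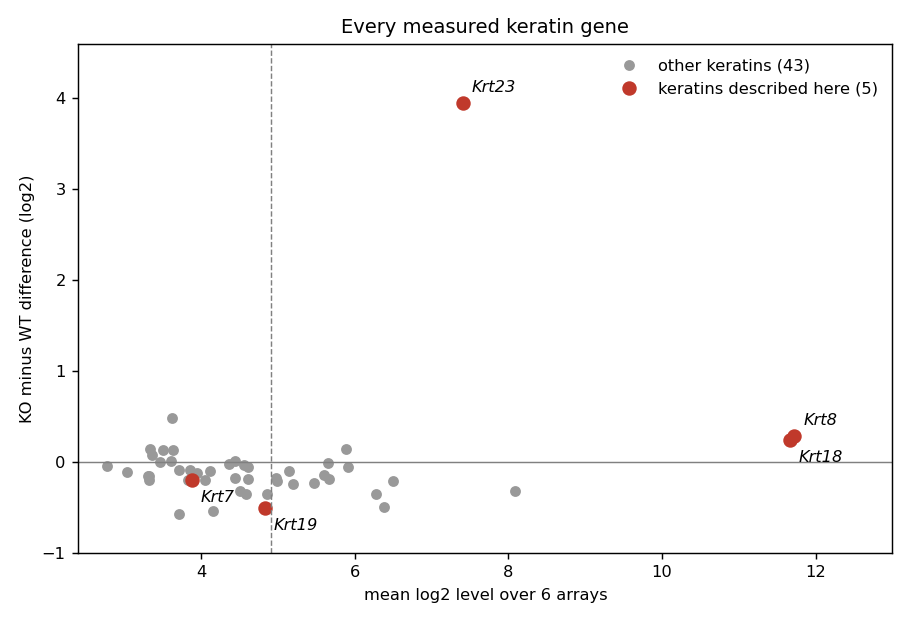
KO minus WT difference (log2) against the mean log2 level over 6 arrays for 48 keratin genes, with the 5 described here in red and named and the 43 others in grey; the dashed line is the background of 4.90. Krt23 lies at 3.96, and the other keratins lie between -0.58 and 0.49.

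Sox9's relatives included Sox4, which rose. Of 18 other SOX factors measured, 2 were higher, 2 lower and 14 gave no call (median -0.083), beside 24.0% called over all genes. Sox4, which in mouse acts together with Sox9 in bile duct formation, stood at 10.13, 10.50 and 9.96 in KO livers, against 6.65, 5.75 and 5.98 in WT livers. All KO livers were far above all WT livers, with a difference of 4.07 ± 0.24 (adjusted p = 3.06e-05 by limma), and of 1.60 with the mean of its probe sets. Sox11, a close relative of Sox4, was also higher (0.71 ± 0.16, adjusted p = 0.0164), a call lost without KO replicate 2 (0.0664) or WT replicate 2 (0.0514). The size for Sox11 depended on the probe set, at 1.23 with the mean of its probe sets and 2.51 with the one of largest SD. Sox5 (-0.72 ± 0.11, adjusted p = 0.00344) and Sox10 (-0.67 ± 0.11, adjusted p = 0.00461) were lower as deposited, and had values of -0.16 and -0.10 and no call with the Bacillus transcripts.

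Other genes of bile ducts and of the ductular reaction went both ways. Of 23 measured ductal genes, 3 were higher, 3 lower and 17 gave no call (median -0.052), beside 24.0% called over all genes. Slc10a2, the bile salt carrier of the luminal membrane of cholangiocytes, stood at 5.45, 4.86 and 6.12 in KO livers and 8.06, 7.82 and 8.86 in WT livers (-2.77 ± 0.35, adjusted p = 0.00129 by limma). Onecut1, a transcription factor of hepatocytes and ducts (-1.33 ± 0.26, adjusted p = 0.00847), and the water channel Aqp1 (-0.55 ± 0.14, adjusted p = 0.0252, but 0.017 with the Bacillus transcripts) were also lower. Elf3, an epithelial transcription factor, was higher (0.58 ± 0.11, adjusted p = 0.00896), as was Anxa13, also a cholangiocyte marker. Cd24a, a surface protein of progenitors, was higher but varied widely, at 6.84, 7.81 and 8.82 in KO livers and 6.77, 6.10 and 5.42 in WT livers (1.72 ± 0.50, adjusted p = 0.0403). Cd24a no longer passed without KO replicate 2 (adjusted p = 0.113), KO replicate 3 (0.0943), WT replicate 2 (0.0858) or WT replicate 3 (0.107). With all 6 arrays kept, its call was also lost in limma with a replicate block (0.0775), with trend and robust eBayes (0.112) and with weighted arrays (0.0781). The count of higher ductal genes was 1 without KO replicate 2, KO replicate 3 or WT replicate 2, and 2 without any of the other arrays. Higher calls over all genes fell too, from 2589 as deposited to 1604, 1497 and 1956 without KO replicates 1, 2 and 3. They were 2424, 2118 and 2223 without WT replicates 1, 2 and 3.

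Of 13 progenitor and ductular reaction genes, 2 were higher, 1 was lower and 10 gave no call (median 0.00), beside 24.0% called over all genes. Afp, alpha-fetoprotein of the fetal liver, stood at 11.07, 10.07 and 10.48 in KO livers, against 3.80, 5.76 and 3.49 in WT livers (6.19 ± 0.55, adjusted p = 0.000243 by limma). Only 1 of the 3 WT arrays was above background for Afp, and the difference was 6.89 without WT replicate 2 and 3.09 with the mean of its probe sets. Tnfrsf12a (Fn14), the receptor through which TWEAK drives progenitor growth, stood at 8.40, 9.04 and 8.32 in KO livers, against 7.52, 7.55 and 7.58 in WT livers (1.03 ± 0.18, adjusted p = 0.00547). Egfr, the receptor of epidermal growth factor, was lower by 2.91 ± 0.20 on the same scale (adjusted p = 6.5e-05), and by 1.85 with the mean of its probe sets. The values of these 3 genes do not overlap between the groups, which was so for 44.8% of all genes.

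Notch and Hippo are pathways that direct biliary fate in liver, and their calls are read beside the 24.0% called over all genes. In the Notch list, 2 of 17 were lower and 15 gave no call (median -0.093). The lower ones were the ligand Dll1 (-0.58 ± 0.14, adjusted p = 0.0222 by limma) and Rfng, a glycosyltransferase that modifies Notch (-0.37 ± 0.09, adjusted p = 0.0182). With the Bacillus transcripts Dll1 differed by -0.019 and Rfng by 0.20, without a call. The hybridization controls gave -0.24 for Dll1 and -0.0215 for Rfng, also without a call. Neither passed without KO replicate 1 or KO replicate 2, Rfng also not without KO replicate 3 and Dll1 also not without WT replicate 2. In the list of the Hippo pathway and YAP targets, 1 of 18 was higher, 1 was lower and 16 gave no call (median -0.024). Tead1, a DNA-binding partner of YAP, stood at 7.03, 7.10 and 7.22 in KO livers, against 6.10, 6.18 and 6.25 in WT livers (0.94 ± 0.10, adjusted p = 0.000455). With the mean of its probe sets Tead1 differed by 0.45 and was still called. Vgll4, which competes with YAP for TEAD factors, differed by -0.46 ± 0.12 (adjusted p = 0.031), a value that turned to 0.11 with the Bacillus transcripts, and gave no call without KO replicate 1, 2 or 3 or WT replicate 2. Without WT replicate 1 the list held 2 higher and 2 lower genes, beside 2424 and 1679 over all genes.

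Genes around the keratin filament included desmosome proteins that rose. Of 15 keratin linkers, desmosome proteins and other intermediate filaments, 5 were higher and 10 gave no call, beside 14.2% higher over all genes, with a median of 0.26 beside -0.055 over all genes. Desmoplakin, Dsp, which ties keratins to desmosomes, stood at 10.47, 10.65 and 10.53 in KO livers, against 10.09, 9.62 and 9.66 in WT livers (0.76 ± 0.14, adjusted p = 0.00674 by limma). Eppk1, epiplakin, a keratin-binding plakin, was higher by 0.92 ± 0.15 (adjusted p = 0.00377), and the desmosomal cadherin Dsg2 by 0.57 ± 0.09 (adjusted p = 0.00338). With the mean of its probe sets Dsg2 differed by 0.33 and was still called. The groups do not overlap in these 3 genes, nor in 44.8% of all genes. The nuclear lamin Lmna was higher by 0.52 ± 0.09 (adjusted p = 0.00676). Periplakin, Ppl, was higher by 0.74 ± 0.20 (adjusted p = 0.0293) but kept its call only without WT replicate 3 among the 6 arrays left out in turn.

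Mallory-Denk bodies are clumps of keratins with other proteins seen in injured hepatocytes. Of 7 measured non-keratin proteins of these bodies, 4 were higher, 1 lower and 2 gave no call, beside 14.2% higher and 9.75% lower over all genes. Sqstm1 (p62), the ubiquitin-binding component, stood at 12.96, 13.06 and 12.93 in KO livers, against 11.86, 11.57 and 11.77 in WT livers (1.25 ± 0.10, adjusted p = 0.000174 by limma). Hspb1, a small heat shock protein, rose by 1.08 ± 0.24 (adjusted p = 0.0151) and the transglutaminase Tgm2, which crosslinks keratins, by 0.76 ± 0.14 (adjusted p = 0.0075). Stub1, a ubiquitin ligase that works with chaperones, was higher by 0.50 ± 0.12 (adjusted p = 0.0215), a call lost without KO replicate 1 (0.0613) or KO replicate 2 (0.0791). The values of these 4 genes are separate between the groups, as are those of 44.8% of all genes. The small heat shock protein Cryab was lower (-0.42 ± 0.11, adjusted p = 0.0253), a call lost without KO replicate 1 or WT replicate 1, and turned to 0.14 with the Bacillus transcripts. The inducible heat shock genes Hspa1a and Hspa1b differed by -1.63 ± 0.93 and -1.12 ± 0.81, with wide spread and no call.

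**Figure D4:**
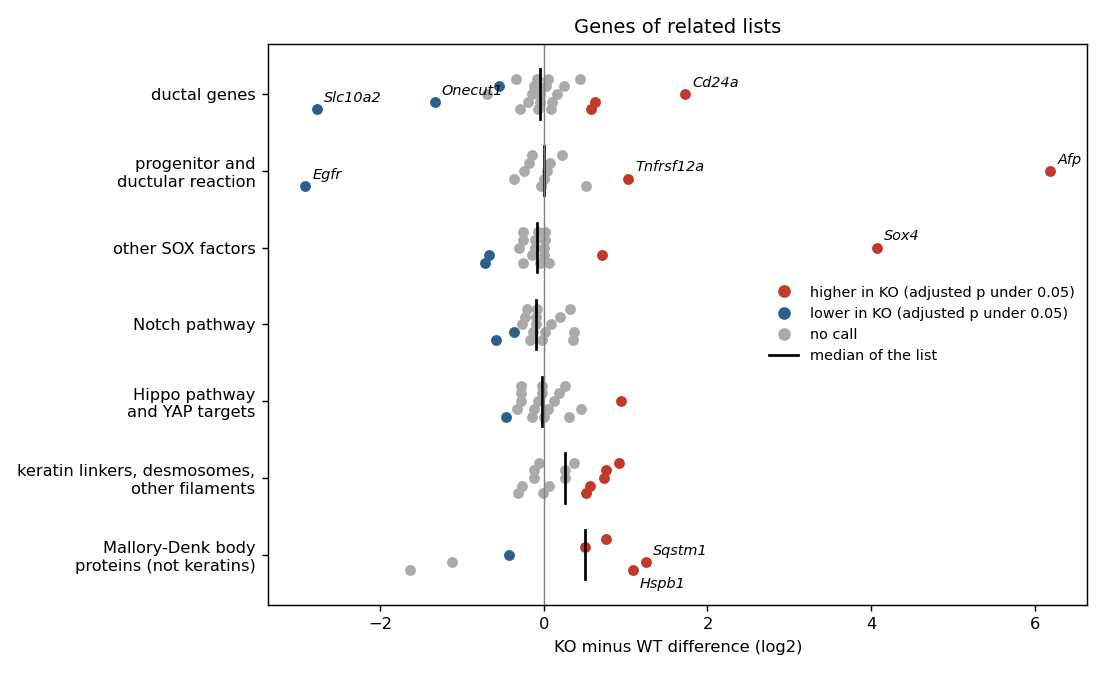
KO minus WT difference (log2) of each gene of 7 related lists, with red for genes called higher, blue for genes called lower, grey for no call and a black bar for the median of the list. Afp, Sox4, Egfr and Slc10a2 lie far from the medians of their lists, which lie between -0.093 and 0.50.

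Lists for partners of the surface and secreted proteins showed few calls, beside 24.0% called over all genes. Of 12 EPCAM partners and proteases with Prom2, 1 was higher, the tetraspanin Cd9 (1.36 ± 0.18, adjusted p = 0.00174 by limma), and 11 gave no call. Prom2, the paralogue of Prom1, was below background on all arrays. Of 16 osteopontin receptors, proteases and related bone phosphoproteins, none was called by limma as deposited, and none had an unadjusted p under 0.05. In this list 5 were called higher with the hybridization controls, as were 41.9% of all genes. With the Bacillus transcripts 12 were called higher, as were 73.3% of all genes. The largest differences there were those of the protease Mmp7 (-0.29 ± 0.15, and 0.056 and 0.28 with the hybridization controls and the Bacillus transcripts) and the integrin Itga4 (0.25 ± 0.16). Itga4 passed at 0.59 (adjusted p = 0.0121) with the hybridization controls and at 0.81 (0.00359) with the Bacillus transcripts.

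Markers of other cells were read beside these results and beside the 24.0% called over all genes. Of 7 measured cholangiocyte markers, 1 was higher (Anxa13, 0.63 ± 0.19, adjusted p = 0.0489 by limma) and 1 lower (Onecut1). The mean log2 level over the list was 4.92 to 4.97 in KO livers and 5.11 to 5.31 in WT livers. Onecut1 (-1.33) had the largest difference of the list and weighs most on the gap between these means. At an unadjusted p under 0.05 in limma were 4 of the 7. These were Anxa13, with a positive difference, and Onecut1, Pkhd1 (-0.70) and Tspan8 (-0.34), with negative ones. Pkhd1 and Tspan8 gave no call. The median difference of the list was -0.14, beside -0.055 over all genes. Anxa13 overlapped between the groups and passed only without WT replicate 3 among the arrays left out in turn. Cftr, a chloride channel of bile duct cells, was below background on all arrays. Of 7 lipid-associated macrophage markers, 3 were higher (Gpnmb, Cd9 and Lgals3), with a mean level of 7.06 to 7.20 in KO livers and 6.22 to 6.44 in WT livers, while Mmp12 was below background on all arrays and Trem2 differed by -0.25 ± 0.10 with no call. None of the 8 Kupffer cell or macrophage markers was called by limma, nor had one an unadjusted p under 0.05, and their mean level was 7.96 to 8.40 in KO livers and 7.57 to 8.77 in WT livers.

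Of 5 mesothelial markers, which mark the liver's keratin-bearing surface layer, 4 were below background on all arrays. Their mean level was 4.11 to 4.30 in KO livers and 4.38 to 4.47 in WT livers. Of 5 intestinal epithelial markers, Lgals4 was higher (1.98 ± 0.23, adjusted p = 0.000828 by limma) and 4 gave no call. Of 5 pancreatic acinar markers, Cela1 was lower (-1.52 ± 0.14, adjusted p = 0.000324) and 4 gave no call. Of 7 endothelial markers, Lyve1 was at least 3.55-fold higher (2.06 ± 0.31, adjusted p = 0.00287), and Clec4g (-0.42 ± 0.12, adjusted p = 0.0402) and Kdr (-0.31 ± 0.09, adjusted p = 0.0481) were lower, but turned to 0.14 and 0.26 with the Bacillus transcripts, and Kdr to 0.036 with the hybridization controls. Of 8 stellate cell or fibroblast markers, Reln (-0.50 ± 0.09, adjusted p = 0.00755) and Dcn (-0.33 ± 0.09, adjusted p = 0.0395) were lower, and of 3 neutrophil markers Csf3r was (-0.39 ± 0.12, adjusted p = 0.0486). With the Bacillus transcripts Reln turned to 0.068, Dcn to 0.24 and Csf3r to 0.18, and with the hybridization controls Dcn turned to 0.020. None of 3 B cell, 5 T or NK cell, 5 epidermal or 2 erythroid markers was called by limma, with 1 of them, an erythroid one, at an unadjusted p under 0.05. The part of any of these cell types in the changes of Krt23, Prom1 and Krt19 was not tested.

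Genes with profiles most like those of the called members were found by the root mean square distance between centred log2 levels over the 6 arrays. For Krt23 they were Acot3 (distance 0.21), a thioesterase of peroxisomes, and Tinag (0.25), a protein of basement membranes. Acot3 stood at 10.37, 9.95 and 10.29 in KO livers and 5.95, 5.81 and 6.04 in WT livers. For Prom1 they were B4galt6 (0.14), a lactosylceramide synthase, and Stx3 (0.14), a syntaxin of the apical membrane. Stx3 stood at 7.66, 8.02 and 7.44 in KO livers and 6.39, 6.19 and 5.93 in WT livers. For Krt19 the nearest were Hoxd13 (0.047) and 4930581F22Rik (0.054), neither of them called (adjusted p = 0.0674 and 0.0594 by limma). Hoxd13 was below background on all 6 arrays.

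**Figure D5:**
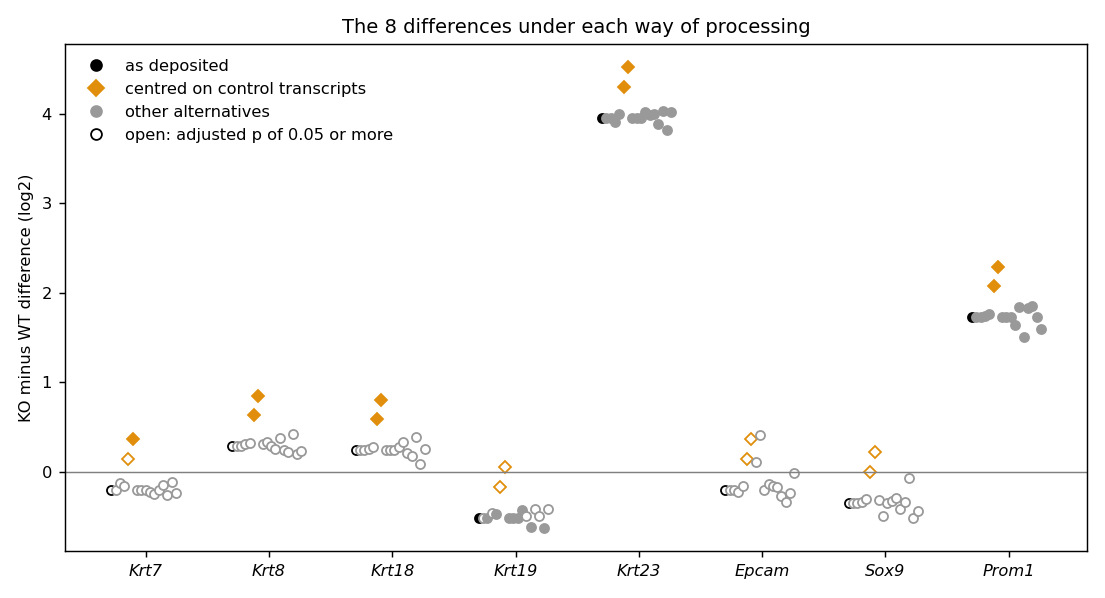
KO minus WT difference (log2) of each gene as deposited (black), with the arrays centred on control transcripts (orange diamonds) and under the other alternatives (grey), filled where the adjusted p is under 0.05. Krt23 runs from 3.82 to 4.52 and Prom1 from 1.51 to 2.29, all filled, and Krt19 from -0.63 to 0.054, partly open.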

How the data were processed

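Total RNA from 3 KO and 3 WT livers was labelled with biotin and hybridised to Affymetrix arrays, per the labels' protocols. The authors deposited 1 log2 level for each probe set and array, computed with RMA (version not given) per the submitters' processing notes. The log2 scale was read from the values (2.15 to 14.9). RMA brings arrays to one distribution, so levels are relative, and differences of dim probe sets are compressed.

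Symbols came from the platform annotation of 2016, in which 34945 probe sets have 1 symbol, 932 have several and 9160 have none listed, checked through gene identifiers against GRCm38.p6 (0 changed). For each of 18193 genes the probe set with the highest mean was kept. The fit used limma (3.58.1, under R 4.3.3) with lmFit and eBayes, two-sided, and p-values were adjusted by Benjamini-Hochberg over all genes at 0.05. Where all arrays of 1 group lay below the olfactory receptor background, the fold is a bound against it. On simulated data with 18193 genes, the fit for KO against WT recovered 25.4% of changes of 0.5, 65.1% of changes of 1 and 97.1% of changes of 2 (log2). The simulation changed a much smaller share of genes than the 24.0% called here, so these recoveries need not hold for these data. Promoters are from RefSeq, found for 6 of the 8 genes.

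Groups and replicate numbers come from sample titles. The labels speak of biological replicates. The number of arrays limits the precision. The members, the lists, the naming rule and the alternatives were chosen with earlier results of these data known. The rule names all members, up to 4 called genes of each list with the largest difference (up to 2 where none was called) and the 2 genes nearest to each called member in profile. Prom2, Cftr, Mmp12, Trem2, Hspa1a, Hspa1b, Elf3, Aqp1, Lmna, Cryab, Krt42, Pkhd1 and Tspan8 were named after their values were seen. Alternatives were a replicate block, a filter on dim genes (12397 left), quantile normalization, centring on the array median or on control transcripts, the mean or the most variable probe set of a gene, eBayes with its trend and robust options, weighted arrays, a stricter p or fold threshold, and each array left out in turn. Centring on Bacillus transcripts was added after the data were seen.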

Additional observations from a re-analysis of the deposited data

How the results depend on the processing

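Krt23 and Prom1 were called higher under all 18 alternatives. The number of members called higher was 4 with the arrays centred on bacterial hybridization controls and 5 with centring on Bacillus transcripts (chosen after seeing the data), where 41.9% and 73.3% of all genes were called higher, and stayed at 2 under the others, including each array left out in turn. Krt8 and Krt18 joined in both control settings. Krt7 joined with the Bacillus transcripts (0.36, adjusted p = 0.0481 by limma), though below background on all arrays as deposited. The number called lower was 1 as deposited. It was 0 with the replicate block, with quantile normalization, with either control centring, at an adjusted p under 0.01 and with at least a 2-fold difference, and 0 to 1 with 1 array left out.

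Directions turned as follows, beside Aqp1, Cryab, Krt42, Reln, Dcn, Kdr, Clec4g and Csf3r, whose values stand with their lists. With hybridization controls Krt7 differed by 0.15, Epcam by 0.15, Sox9 by 0.0011, Mmp7 by 0.056 and Krt34 by 0.022. With Bacillus transcripts Krt7 differed by 0.36, Krt19 by 0.054, Epcam by 0.37, Sox9 by 0.22, Rfng by 0.20, Vgll4 by 0.11, Mmp7 by 0.28, Krt34 by 0.24 and Krt81 by 0.065. Epcam was 0.11 with the mean of its probe sets and 0.41 with the probe set of largest SD. The cause was not tested, beyond centring adding 1 amount to every gene.

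The replicate numbers were not taken to pair the livers: deviations of same-numbered arrays correlated at 0.10, -0.018 and 0.11. With the numbers as a replicate block Krt19 had an adjusted p of 0.0767, and 0 members were called lower and 2 higher. Over all genes, 2589 were higher and 1774 lower as deposited, 2471 and 1618 with the block, 7630 and 561 with hybridization controls, 13327 and 346 with Bacillus transcripts, 1604 and 984 without KO replicate 1, 1497 and 888 without KO replicate 2, and 1956 and 1156 without KO replicate 3. The number of arrays limits what could be called.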
